A study of Arabidopsis thaliana with 16 samples.

Results

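The genes described here are 125 of the 19895 *Arabidopsis thaliana* genes that reached 1 FPKM (fragments scaled to transcript length and sequencing depth) in at least 2 of 16 mRNA-seq libraries. They were chosen by their differences from the wild type: d is the mean log2(FPKM + 0.5) of a genotype minus that of Col-0, and each of the 125 genes had a d of at least 1 in the 3 *bpc* mutants (*aipp3-1*, *cpl2-2* and the double mutant *aipp2-1/paipp2-1*) and a d under 0.5 in both *clf-81* and *lhp1-3*. In all, 350 genes met the condition on the *bpc* mutants. Of the others, 147 also had a d of at least 1 in *clf-81* and are called the comparison genes, and 78 met neither the limits of the Polycomb mutants nor this condition.

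The study asked which genes are silenced by the BPC complex and how they relate to the Polycomb pathway. It had 2 libraries for each of 8 genotypes: *aipp3-1* and *cpl2-2*, each a T-DNA insertion line, the double mutant *aipp2-1/paipp2-1*, the single mutants *aipp2-1* (T-DNA insertion) and *paipp2-1* (CRISPR/Cas9, made in Col-0), the Polycomb mutants *clf-81* and *lhp1-3*, and Col-0. Whole seedlings of all genotypes were grown for 12 days on half-strength MS medium with 1% sucrose, at 23 °C with 16 h of light and 8 h of dark. Each mutation is represented by 1 line, and no source used here says whether the 2 libraries came from separate cultures, so p-values measure only the spread between these libraries.

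The BPC complex joins AIPP3, a BAH-domain protein that binds histone H3 trimethylated at lysine 27, with the PHD-finger proteins AIPP2 and PAIPP2, which bind H3 with an unmethylated lysine 4, and with CPL2, a phosphatase of the RNA polymerase II tail. CLF is a methyltransferase of Polycomb repressive complex 2 that places the H3K27me3 mark, and LHP1 is a chromodomain protein that binds it. Some members, 15 of the 97 with a biological-process term, carry terms of salicylic acid or systemic acquired resistance. In salicylic acid signalling EDS1 and PAD4 act upstream of the hormone, WRKY factors act on target genes, and genes such as *PR2* mark the activated state.

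Depths computed from the files ran from 19200000 to 27100000 fragments per library, with a median of 22800000. The mutated genes were checked first. *AIPP3* (AT4G11560) was lower by 2.01 on the log2 scale in *aipp3-1* than in Col-0 (limma, Benjamini-Hochberg adjusted p = 6.1e-06), *CPL2* (AT5G01270) by 1.21 in *cpl2-2* (limma adjusted p = 0.00022) and *AIPP2* (AT3G02890) by 1.64 in *aipp2-1/paipp2-1* (limma adjusted p = 1.6e-05). In the single mutants the targeted transcripts were not called lower: d was -0.40 for *AIPP2* in *aipp2-1* (limma adjusted p = 1) and -0.57 for *PAIPP2* (AT5G16680) in *paipp2-1* (limma adjusted p = 0.12). *CLF* had -0.38 in *clf-81* and *LHP1* -0.55 in *lhp1-3* (limma adjusted p = 0.024 and 0.0081). What a partial or altered transcript leaves of each protein cannot be read from these values. One pair of libraries bears on the choice of genes. The Col-0 libraries differed for the 125 genes by a median of 0.30 (log2, replicate 2 over replicate 1), against 0.05 for all genes tested, and 91 of the 125 (72.8%, against 60.3% of all genes) were higher in replicate 2. Without Col-0 replicate 1 the rule chose 115 genes, 84 of them among the 125, and without Col-0 replicate 2 it chose 127, with 96 among the 125. In the *aipp2-1/paipp2-1* pair, replicate 2 was lower than replicate 1 by a median of 0.37, and leaving out either library gave 127 genes (123 of the 125 without replicate 1 and 122 without replicate 2). With each of the 16 libraries left out in turn, 53 of the 125 genes always stayed. Of the members described below, *WRKY70*, *FMO1*, *DMR6*, *BG3*, *CRK4*, *CRK7*, *WAK3*, *BIP3*, *PCR1* and *HSP70* were among those that always stayed. *WRKY54*, *PAD4*, *DLO1*, *PR2*, *AZI1*, *CRK6*, *SEC31A*, *HSP14.7*, *ASY1* and *CRU3* did not, so their membership hangs on single libraries.

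Of the 125, 123 have a locus in the TAIR10.1 annotation, 120 of them protein coding, with 34 on chromosome 1, 18 on chromosome 2, 25 on chromosome 3, 24 on chromosome 4 and 22 on chromosome 5. The build behind the deposited values is not given in the sources used here, so positions are those of TAIR10.1 by locus name. The remaining 2 carry assembly IDs only. In wild-type seedlings most were weakly expressed. Their mean Col-0 level had a median of 1.27 FPKM, close to the 1.39 FPKM of the genes also raised in *clf-81*, while the median of all genes tested was 9.39 FPKM. 84.0% of the members lay at 5 FPKM or less, against 87.1% of the comparison genes and 33.8% of all genes. The median transcript length was 1708 bases for the members, against 1225 for the comparison genes and 1710 for all genes tested.

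Promoter sequences of the members on which the results below turn are shown here, read by locus and strand from TAIR10.1 (RefSeq). The first set shows genes of the cysteine-rich receptor-like kinase (CRK) array on chromosome 4 and *WRKY70*, with the W-box core (TTGAC on either strand), the element that WRKY factors bind, in capitals. Each run is the 250 bases before the annotated start, 5′ to 3′: *CRK5* at chr4:12120221-12120470 (minus strand), *CRK6* at chr4:12121119-12121368 (plus), *CRK7* at chr4:12125414-12125663 (plus), *CRK14* at chr4:12156882-12157131 (minus) and *WRKY70* at chr3:20910624-20910873 (minus).
CRK5: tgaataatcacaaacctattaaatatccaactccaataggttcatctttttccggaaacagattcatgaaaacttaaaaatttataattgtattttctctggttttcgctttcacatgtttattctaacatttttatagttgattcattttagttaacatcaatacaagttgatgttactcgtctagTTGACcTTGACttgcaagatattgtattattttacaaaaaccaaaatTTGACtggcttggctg
CRK6: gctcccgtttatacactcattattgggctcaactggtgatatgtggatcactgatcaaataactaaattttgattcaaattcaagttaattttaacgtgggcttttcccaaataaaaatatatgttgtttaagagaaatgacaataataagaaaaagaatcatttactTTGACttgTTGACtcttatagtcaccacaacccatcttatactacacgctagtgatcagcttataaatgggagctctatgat
CRK7: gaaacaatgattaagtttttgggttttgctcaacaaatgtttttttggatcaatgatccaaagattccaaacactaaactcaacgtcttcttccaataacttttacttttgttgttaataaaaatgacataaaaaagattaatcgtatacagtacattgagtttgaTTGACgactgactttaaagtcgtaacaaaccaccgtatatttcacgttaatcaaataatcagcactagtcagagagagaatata
CRK14: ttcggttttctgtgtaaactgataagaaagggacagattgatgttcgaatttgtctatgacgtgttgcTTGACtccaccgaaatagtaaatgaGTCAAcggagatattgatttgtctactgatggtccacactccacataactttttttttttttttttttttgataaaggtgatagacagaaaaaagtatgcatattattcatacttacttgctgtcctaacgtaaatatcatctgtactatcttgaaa
WRKY70: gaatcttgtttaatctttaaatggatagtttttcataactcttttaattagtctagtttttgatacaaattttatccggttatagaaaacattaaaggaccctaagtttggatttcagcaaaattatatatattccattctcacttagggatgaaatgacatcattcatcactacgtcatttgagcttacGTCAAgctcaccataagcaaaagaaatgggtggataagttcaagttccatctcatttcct

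*CRK5* holds 3 matches in this window, *CRK6* and *CRK14* hold 2 each, and *CRK7* and *WRKY70* hold 1 each. All 10 *CRK* members had at least 1 match between 250 bases before and 50 bases after the start, but these genes are copies of one another and share sequence. Over this 300-base window 88 of the 123 members with a promoter (71.5%) held the W-box core, against 104 of 145 comparison genes (71.7%) and 51.0% of all genes tested. At least 2 matches were found for 34.1% of the members, 37.9% of the comparison genes and 18.1% of all genes. The TGA-factor core TGACG, which overlaps the W-box core in TTGACG, was found for 33.3% of members, 33.1% of comparison genes and 23.8% of all genes. Among the other motifs searched, on both strands, TATAAA was found for 65.9% of members and 51.8% of all genes, GAGAGA for 30.9% and 28.4%, the G-box CACGTG for 8.94% and 8.85%, the telobox core AAACCCT for 8.13% and 9.37%, and the GCC-box GCCGCC for 2.44% and 2.62%. A match is a run of letters and was not tested as a binding site.

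The second set shows *BIP3* at chr1:2931851-2932100 (minus) and *SEC31A* at chr1:6488983-6489232 (plus), the most strongly raised members of the endoplasmic reticulum (ER) stress list, with matches to the ER stress element (CCAAT and CACG with any 10 bases between, on either strand) in capitals. This motif was chosen after the values were seen.
BIP3: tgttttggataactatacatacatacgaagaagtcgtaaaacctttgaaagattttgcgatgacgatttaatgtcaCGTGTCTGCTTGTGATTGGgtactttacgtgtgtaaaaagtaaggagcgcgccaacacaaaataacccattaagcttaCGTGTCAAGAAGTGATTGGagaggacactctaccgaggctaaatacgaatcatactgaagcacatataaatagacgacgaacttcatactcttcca
SEC31A: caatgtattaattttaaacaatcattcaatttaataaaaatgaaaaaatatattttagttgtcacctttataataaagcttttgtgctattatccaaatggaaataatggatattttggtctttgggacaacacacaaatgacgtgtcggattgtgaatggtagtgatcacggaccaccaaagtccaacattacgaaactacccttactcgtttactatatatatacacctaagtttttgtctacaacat

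*BIP3* holds 2 copies of the element and *SEC31A* holds none in the letters searched. Over the 300-base window 2 of 123 members (1.63%) and 1.07% of all genes tested held it. A heat shock element (GAANNTTC), also chosen after the values were seen, was found for 12 of 123 members (9.76%) and 11.2% of all genes.

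**Figure D1:**
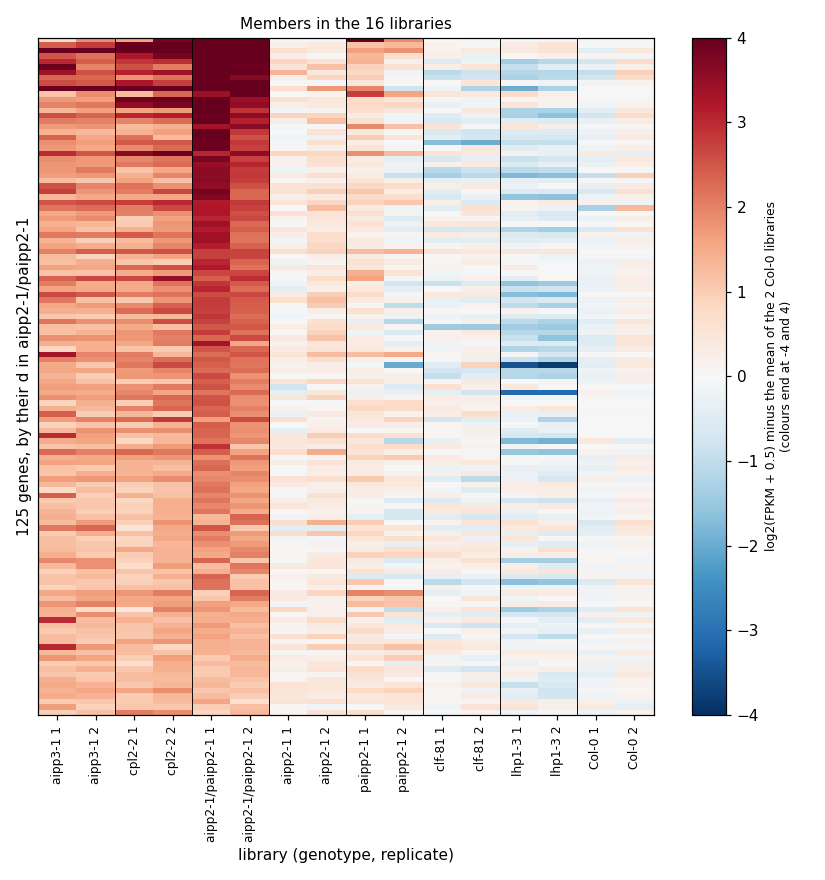
The 125 genes (rows, ordered by d in *aipp2-1/paipp2-1*) in the 16 libraries (columns, 2 per genotype). Colour gives log2(FPKM + 0.5) minus the mean of both Col-0 libraries. The 6 libraries of the *bpc* mutants are red by the rule, the single mutants are pale, and a subset of rows is blue in *lhp1-3*.

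Because the rule used the *bpc* mutants, *clf-81*, *lhp1-3* and Col-0, the members' differences there are given as a description without a test. The same values sorted the other genes of each list out of the members. The limma calls given below for listed genes in these mutants are therefore descriptions too, and are no independent support. In whole seedlings, fewer cells of a type and less RNA per cell cannot be told apart. The median d of the members was 2.22 in the double mutant (1.06 to 6.56), 1.58 in *cpl2-2* (1.01 to 4.99) and 1.53 in *aipp3-1* (1.01 to 4.11). Of the 125, 99 (79.2%) had their largest d in the double mutant, against 61.9% of the comparison genes and 41.8% of all genes tested. The smallest of the 3 values was in *aipp3-1* for 80 members, against 67 of the 147 comparison genes and 5451 of all 19895 genes tested. The rule set only an upper limit in the Polycomb mutants. The median d was 0.08 in *clf-81* and -0.33 in *lhp1-3*. Of the 125, 91 (72.8%) were lower in *lhp1-3* than in *clf-81*, against 44.9% of all genes tested. The share was 91.8% for the comparison genes, which were chosen for a high d in *clf-81*. In *lhp1-3*, 28 members (22.4%) had a d of -1 or less, against 2.24% of all genes tested, and in *clf-81* 3 members did (2.4%, against 2.98% of all genes). Both *lhp1-3* libraries lay below both Col-0 libraries for 64 members, where 36% of all genes did. The genes also raised in *clf-81* had a median d of 0.45 in *lhp1-3*. Only the members had an upper limit in *lhp1-3*, and the comparison genes and all genes tested had none. Part of each of these differences is therefore set by the rule.

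**Figure D2:**
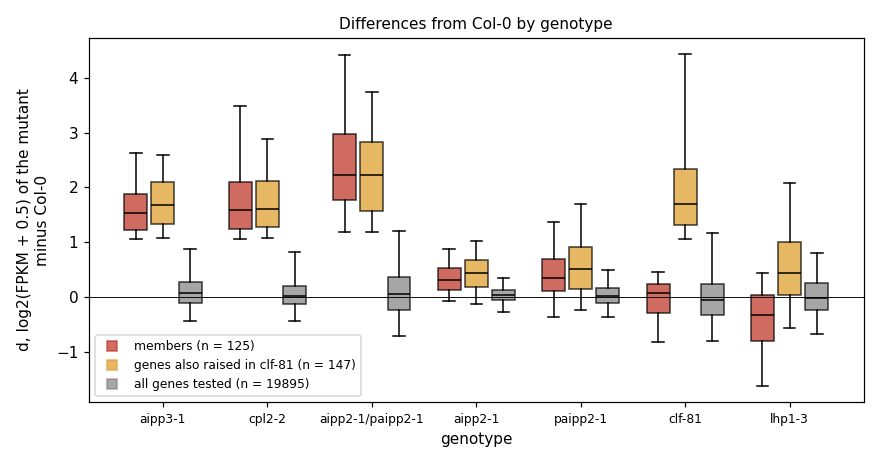
Difference from Col-0 (d, log2 scale) in each mutant for the 125 members, the 147 genes also raised in *clf-81* and all 19895 genes tested. Boxes span the quartiles with the median as a line, and whiskers end at the 5th and 95th percentiles. The members have medians of 0.30 in *aipp2-1*, 0.36 in *paipp2-1*, 0.08 in *clf-81* and -0.33 in *lhp1-3*.

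Of the 97 members with a biological-process term in the deposited annotation, 30 (30.9%) carried a defense term, against 24.2% of the comparison genes and 5.81% of all genes tested. Terms of salicylic acid or systemic acquired resistance were attached to 15 members (15.5%), against 15.8% of the comparison genes and 1.47% of all genes. Both sets of raised genes thus carried these terms in similar shares. They differed in other classes. Kinase activity was annotated for 20 of 82 members (24.4%), against 3.67% of the comparison genes and 7.91% of all genes. The members include 10 *CRK* genes, which are close copies of one another, so kinase members are not independent cases. Development or flowering terms were attached to 1 member (1.03%), against 9.17% of the comparison genes and 10.5% of all genes, and transcription factor activity to 7 (8.54%), against 16.5% and 8.11%. These shares are descriptions of annotated genes, which are not replicates.

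Of a list of 29 salicylic acid and systemic acquired resistance genes, 27 were tested and 8 were members: *FMO1*, *WRKY70*, *WRKY54*, *PAD4*, *DMR6*, *DLO1*, *PR2* and *AZI1*. The 19 others were not a contrasting set. Of the 19, 8 were called higher in *aipp3-1* than in Col-0 (limma, an adjusted p under 0.05 by Benjamini-Hochberg with a difference of 2-fold or more), where 3.14% of all genes were. In *cpl2-2* 11 were called higher, where 2.71% of all genes were, and in the double mutant 16, where 6.44% were. Of these others 9 had a d of at least 1 in all 3 mutants, and all 9 had a d of at least 0.5 in *clf-81*, which with the limit in *lhp1-3* is what kept them out of the members, among them *SARD1* (0.83), *CBP60g* (0.81), *ALD1* (0.66) and *PR5* (0.63). The 10 remaining genes missed the condition on the *bpc* mutants.

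*WRKY70* (AT3G56400, chromosome 3, 20908711 to 20910623, minus strand) encodes a transcription factor of the salicylic acid response. It had 50.1 and 42.6 FPKM for *aipp3-1*, 50.8 and 44.6 for *cpl2-2* and 55.9 and 31.9 for *aipp2-1/paipp2-1*. The values were 16.5 and 29.2 FPKM for *aipp2-1*, 15.00 and 12.3 for *paipp2-1*, 10.1 and 9.74 for *clf-81* and 3.18 and 2.95 for *lhp1-3*, against 11.2 and 8.98 for Col-0. All 6 *bpc* libraries lay above those of Col-0, and both *lhp1-3* libraries lay below, giving a d of -1.56 there. Its close relative *WRKY54* (AT2G40750, chromosome 2, 17000419 to 17002528, minus strand) had 10.9 and 10.8 FPKM for *aipp3-1*, 13.9 and 11.3 for *cpl2-2* and 26.9 and 11.4 for *aipp2-1/paipp2-1*. In the remaining genotypes it had 2.61 and 3.91 FPKM for *aipp2-1*, 2.43 and 2.38 for *paipp2-1*, 3.01 and 2.73 for *clf-81* and 1.31 and 1.2 for *lhp1-3*, against 2.51 and 1.84 for Col-0. Its *lhp1-3* libraries were again the lowest.

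*FMO1* (AT1G19250, chromosome 1, 6650476 to 6653195, minus strand), the enzyme that makes N-hydroxypipecolic acid, the signal of systemic acquired resistance, had 4.97 and 6.30 FPKM for *aipp3-1*, 6.23 and 11.4 for *cpl2-2* and 5.12 and 7.75 for *aipp2-1/paipp2-1*. It had 0.54 and 1.30 FPKM for *aipp2-1*, 2.68 and 0.61 for *paipp2-1*, 0.39 and 0.75 for *clf-81* and 0.31 and 0.59 for *lhp1-3*, against 0.37 and 0.83 for Col-0. The libraries of *clf-81* and *lhp1-3* overlapped those of Col-0, and 1 library of each single mutant stood above both. *DMR6* (AT5G24530, chromosome 5, 8378759 to 8383401, plus strand), which hydroxylates salicylic acid, was expressed at 53.8 and 48.2 FPKM for *aipp3-1*, 64.5 and 73.5 for *cpl2-2* and 87.1 and 54.8 for *aipp2-1/paipp2-1*. Elsewhere the levels were 20.7 and 27.9 FPKM for *aipp2-1*, 17.2 and 15.97 for *paipp2-1*, 18.2 and 17 for *clf-81* and 13.6 and 13.1 for *lhp1-3*, against 15.03 and 14.3 for Col-0. Both libraries of each single mutant were above Col-0, and *aipp2-1* had a d of 0.69 (standard error 0.187) that was not past the threshold (limma adjusted p = 0.90). *DLO1* (AT4G10500), the other salicylic acid hydroxylase, had d values of 2.22 in the double mutant, 1.93 in *cpl2-2*, 1.65 in *aipp3-1* and 0.43 in *clf-81*.

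*PR2* (AT3G57260, chromosome 3, 21188397 to 21189967, minus strand), a β-1,3-glucanase and a marker of the salicylic acid response, had the lowest d in *lhp1-3* of all members. It had 71.5 and 53.8 FPKM for *aipp3-1*, 108 and 155 for *cpl2-2* and 131 and 111 for *aipp2-1/paipp2-1*. Its other values were 27.6 and 29.6 FPKM for *aipp2-1*, 23.3 and 5.74 for *paipp2-1*, 17.8 and 47.7 for *clf-81* and 1.77 and 1.27 for *lhp1-3*, against 18.2 and 33.4 for Col-0. The *lhp1-3* libraries were far below Col-0 (d of -3.65), those of *clf-81* overlapped it, and of the *paipp2-1* libraries 1 was within the Col-0 range and 1 below it. Close by on the chromosome, *BG3* (AT3G57240, chromosome 3, 21181642 to 21183144, minus strand), a related glucanase, had 13.8 and 7.44 FPKM for *aipp3-1*, 11.02 and 13.7 for *cpl2-2* and 27.6 and 30.1 for *aipp2-1/paipp2-1*, against 0.20 and 2.14 for Col-0. The Col-0 libraries were far apart, and all 6 *bpc* libraries lay above the higher of them. Of a list of 12 chitinase and glucanase genes, which holds *BG3*, 10 were tested and 2 were members. The other member, *AT2G43620*, had d values of 1.49 in *aipp3-1*, 1.37 in *cpl2-2* and 1.80 in the double mutant. Its d was 0.34 in *clf-81* and 0.44 in *lhp1-3*.

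*AZI1* (AT4G12470, chromosome 4, 7401087 to 7401951, minus strand), a lipid-transfer-like protein of systemic immunity, was among the most abundant members. It had 182 and 171 FPKM for *aipp3-1*, 159.7 and 179 for *cpl2-2* and 367 and 185 for *aipp2-1/paipp2-1*. It had 86.1 and 118 FPKM for *aipp2-1*, 172 and 80.2 for *paipp2-1*, 38.4 and 47.9 for *clf-81* and 25.01 and 26.8 for *lhp1-3*, against 55.5 and 119.9 for Col-0. The Polycomb mutants were below both Col-0 libraries, and the single mutants overlapped them. *PAD4* (AT3G52430) sat just inside the rule, with a d of 1.01 in *aipp3-1*, and *EDS1B* (AT3G48080), a lipase-like partner of PAD4, had 1.04. *AT1G56120* had 1.02. Just outside on the same condition were *AT2G25200* (0.97), *HR4* (0.97) and *AT3G48640* (0.99). The condition on *cpl2-2* had *AT1G56120* (1.01), *AT4G06320* (1.03) and *AT1G33610* (1.03) just inside and *HSPRO2* (1.00, by rounding), *AT5G45000* (0.98) and *AT4G37220* (0.98) just outside. For the double mutant, *AT2G33175* (1.06), *AT2G31945* (1.09) and *BZIP1* (1.11) were inside and *AT1G21520* (0.99), *SSL6* (0.98) and *VQ22* (0.98) outside. For *clf-81*, *TSPO* (0.49), *ERF5* (0.49) and *3MMP* (0.48) were inside and *ARCK1* (0.53), *AT2G39210* (0.54) and *XBAT34* (0.54) outside. For *lhp1-3*, *BGLU19* (0.49), *WRKY58* (0.49) and *AT3G48390* (0.46) were inside and *AT3G44400* (0.51), *CRA1* (0.53) and *AT5G45990* (0.55) outside. Genes on both sides of each limit thus had similar values.

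Some other members with known immune roles were raised in the *bpc* mutants and low in *lhp1-3*. This did not hold for all immune members. In *lhp1-3* d was 0.25 for *DLO1*, 0.44 for *AT2G43620* and 0.49 for *WRKY58*, and 32 members of any role had a d above 0. *AED1* (AT5G10760), an apoplastic aspartyl protease, had d values of 3.75 in the double mutant, 3.08 in *cpl2-2*, 2.47 in *aipp3-1* and -1.46 in *lhp1-3*. *RLP23* (AT2G32680), a receptor-like protein that recognises a microbial peptide, had 4.37, 1.98, 2.30 and -1.18 in the same order. *ACD6* (AT4G14400), an ankyrin-repeat membrane protein of defense, had 24.5 and 24.1 FPKM for *aipp3-1*, 30.9 and 24.6 for *cpl2-2* and 60.2 and 60.9 for *aipp2-1/paipp2-1*, against 8.57 and 12.7 for Col-0. It was low in both Polycomb mutants, with 3.61 and 3.38 FPKM in *clf-81* and 3.67 and 3.44 FPKM in *lhp1-3*. *MC2* (AT4G25110), a metacaspase, had a d of -1.10 in *lhp1-3*, and *PLA2A* (AT2G26560), a patatin-like phospholipase, one of -1.82. *FLOT1* (AT5G25250), a flotillin of the plasma membrane, had 44.3 and 38.9 FPKM for *aipp3-1*, 29.3 and 32.2 for *cpl2-2* and 43.9 and 45.3 for *aipp2-1/paipp2-1*, against 6.88 and 6.60 for Col-0. Its *lhp1-3* libraries had 1.74 and 1.61 FPKM. No library of these 4 mutants overlapped Col-0.

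Of 24 receptor kinase genes in a second list, 19 were tested and 8 were members. These kinases sit in the plasma membrane, with a domain outside the cell that can sense ligands. Of the 11 others, 5 were called higher in *aipp3-1*, 4 in *cpl2-2* and all 11 in the double mutant (limma, as above). With 3 further *CRK* members (*CRK15*, *CRK23* and *CRK24*), 10 CRKs were in the set. Their d ranged from 1.79 to 3.35 in the double mutant, 1.14 to 2.47 in *cpl2-2* and 1.05 to 1.80 in *aipp3-1*. All 10 had a d below 0 in *lhp1-3* (-1.72 to -0.40) and 7 had one in *clf-81*. *CRK* genes are close copies, and how reads shared between copies were divided is not given in the sources used here, so the split between them is uncertain.

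*CRK6* (AT4G23140, chromosome 4, 12121369 to 12124564, plus strand) had 9.02 and 9.33 FPKM for *aipp3-1*, 7.43 and 11.1 for *cpl2-2* and 35.2 and 20.4 for *aipp2-1/paipp2-1*. It had 3.39 and 4.11 FPKM for *aipp2-1*, 3.22 and 1.10 for *paipp2-1*, 0.69 and 0.90 for *clf-81* and 0.38 and 0.43 for *lhp1-3*, against 1.04 and 5.24 for Col-0. The Col-0 libraries were far apart, and both *clf-81* and both *lhp1-3* libraries were below the lower one. *CRK4* (AT3G45860, chromosome 3, 16863088 to 16866261, minus strand), which lies outside the chromosome 4 array, had 8.69 and 7.56 FPKM for *aipp3-1*, 13.4 and 13.8 for *cpl2-2* and 37.3 and 17.45 for *aipp2-1/paipp2-1*. Its levels were 1.90 and 3.48 FPKM for *aipp2-1*, 2.59 and 2.01 for *paipp2-1*, 0.28 and 0.14 for *clf-81* and 0.82 and 0.83 for *lhp1-3*, against 1.90 and 2.21 for Col-0. It was the member with the lowest d in *clf-81* (-1.85), and neither Polycomb mutant overlapped Col-0. *CRK7* (AT4G23150) had 3.08 and 2.79 FPKM for *aipp3-1*, 3.28 and 3.88 for *cpl2-2* and 13.3 and 6.10 for *aipp2-1/paipp2-1*, against 0.26 and 0.79 for Col-0. *WAK3* (AT1G21240, chromosome 1, 7434235 to 7436830, plus strand), a wall-associated kinase, had 6.02 and 3.93 FPKM for *aipp3-1*, 4.04 and 6.67 for *cpl2-2* and 11.04 and 8.20 for *aipp2-1/paipp2-1*. Its levels elsewhere were 0.91 and 1.65 FPKM for *aipp2-1*, 1.33 and 0.43 for *paipp2-1*, 0.35 and 0.58 for *clf-81* and 0.03 and 0.08 for *lhp1-3*, against 0.82 and 1.42 for Col-0. The *lhp1-3* libraries were the lowest.

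Members lay next to each other, with at most 2 other genes between, in 5 runs that held 11 members. These were *BG3* and *PR2* on chromosome 3, *CRK36* and *CRK37* at another place on chromosome 4, and *CRK5*, *CRK6* and *CRK7*, *CRK14* and *CRK15*, and *CRK23* and *CRK24* in the large array. That array has 22 annotated genes from *CRK5* to *CRK24*, of which 18 passed the filter and 7 were members. The genes between the members behaved in several ways. *CRK8* had a d of 0.82 in *aipp3-1* and so missed 1 condition, while *CRK9* and *CRK13* were raised in all 3 mutants but also in *clf-81* (1.42 and 1.85). *CRK10* reached 1.47 in *clf-81* and 1.49 in *lhp1-3*, *CRK12* had -2.76 in *lhp1-3* and 0.54 in the double mutant, and *CRK21* had -0.22 in the double mutant. The adjacent copies *CRK12* and *CRK13* had -1.52 and 1.85 in *clf-81*.

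**Figure D3:**
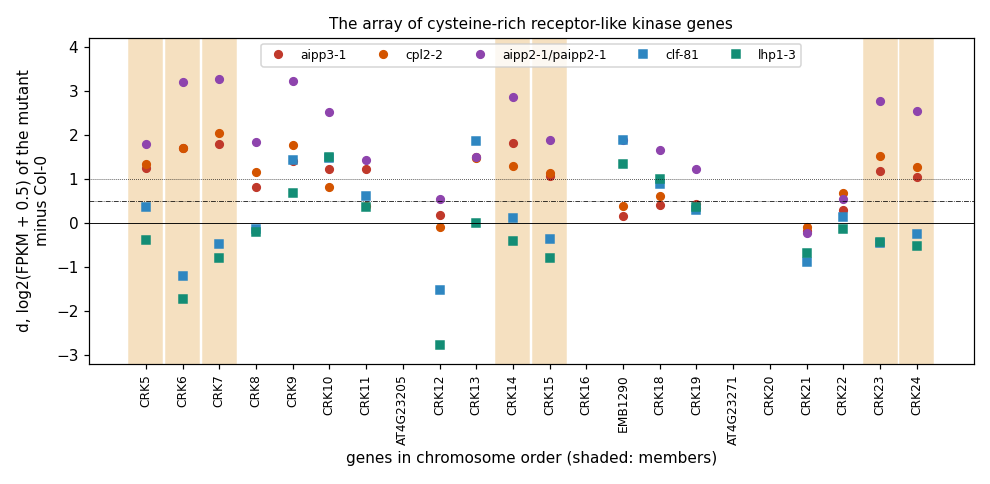
Difference from Col-0 (d, log2 scale) for 22 genes of the CRK array in chromosome order, in 5 mutants (circles for the *bpc* mutants, squares for *clf-81* and *lhp1-3*). Shaded genes are members, dotted and dash-dotted lines mark d of 1 and 0.5, and genes without points did not pass the filter. *CRK9*, *CRK10* and *CRK13* have squares above 1 in *clf-81* between the shaded genes.

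Of 23 ER stress genes tested, 3 were members: *SEC31A*, *BIP3* and *TIN1*. Of the 20 others, 1 was called higher in *aipp3-1*, 1 in *cpl2-2* and 4 in the double mutant (limma, as above), and the constitutive chaperones *BIP1* and *BIP2* had d values of 0.19 and 0.38 in *aipp3-1*. *SEC31A* (AT1G18830, chromosome 1, 6489233 to 6494634, plus strand), a coat component of the vesicles that leave the ER, was nearly silent in the wild type and had 2.40 and 3.25 FPKM for *aipp3-1*, 16.1 and 15.7 for *cpl2-2* and 33.2 and 22.9 for *aipp2-1/paipp2-1*. Its other values were 0.14 and 0.21 FPKM for *aipp2-1*, 0.74 and 0.83 for *paipp2-1*, 0.10 and 0.08 for *clf-81* and 0.18 and 0.31 for *lhp1-3*, against 0.03 and 0.06 for Col-0. Each of these mutant libraries thus lay above both Col-0 libraries. At such low levels d depends on the pseudocount. The d of *SEC31A* in *lhp1-3*, 0.45, therefore does not show that the gene was not raised there. *BIP3* (AT1G09080, chromosome 1, 2929217 to 2931850, minus strand), an ER chaperone induced by misfolded proteins, had 11.4 and 5.39 FPKM for *aipp3-1*, 6.72 and 10.6 for *cpl2-2* and 24.1 and 7.98 for *aipp2-1/paipp2-1*. In the other genotypes it had 2.15 and 2.86 FPKM for *aipp2-1*, 3.21 and 1.63 for *paipp2-1*, 0.78 and 1.28 for *clf-81* and 0.66 and 0.67 for *lhp1-3*, against 0.64 and 2.16 for Col-0. For *BIP3* the spread within pairs was wide, but each of the 6 *bpc* libraries lay above each Col-0 library. *TIN1* (AT5G64510), named for its induction by tunicamycin, had 6.59 and 4.99 FPKM for *aipp3-1*, 5.52 and 5.61 for *cpl2-2* and 5.47 and 5.14 for *aipp2-1/paipp2-1*, against 1.79 and 2.37 for Col-0.

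Heat shock genes gave 2 members of 5 tested. *HSP14.7* (AT5G47600, chromosome 5, 19299717 to 19300503, minus strand), a small heat shock protein, had the largest smallest d of all members (4.11, in *aipp3-1*). It had 18.7 and 17.45 FPKM for *aipp3-1*, 32.9 and 34.4 for *cpl2-2* and 42.7 and 67.7 for *aipp2-1/paipp2-1*. Its other values were 1.18 and 0.89 FPKM for *aipp2-1*, 2.86 and 3.34 for *paipp2-1*, 0.68 and 0.86 for *clf-81* and 0.88 and 1.06 for *lhp1-3*, against 0.28 and 0.97 for Col-0. *HSP70* (AT3G12580, chromosome 3, 3991117 to 3993886, minus strand), a cytosolic chaperone, had 75.8 and 88.9 FPKM for *aipp3-1*, 62.9 and 70.7 for *cpl2-2* and 68.9 and 63.1 for *aipp2-1/paipp2-1*. The other genotypes had 20.4 and 24.5 FPKM for *aipp2-1*, 53.4 and 48.3 for *paipp2-1*, 23.2 and 20.8 for *clf-81* and 25.8 and 27.5 for *lhp1-3*, against 20.6 and 23.2 for Col-0. *HSP70* was 1 of 14 members whose d was largest in *aipp3-1*. Of the 3 other heat shock genes tested, *HSFA2* was called higher in *aipp3-1* and in *aipp2-1/paipp2-1*, and *HSP101* and *HSP17.6A* in none of them.

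The 10 members with the largest smallest d over the 3 mutants were *HSP14.7*, *PCR1*, *BG3*, *CCOAMT*, *AT1G13470*, *SEC31A*, *GLCAK2*, *AT2G41470*, *FMO1* and *AED1*, with smallest d from 2.47 to 4.11. *PCR1* (AT1G14880, chromosome 1, 5132506 to 5133860, minus strand), a membrane protein linked to cadmium resistance, had 33.96 and 38.6 FPKM for *aipp3-1*, 41.00 and 53.9 for *cpl2-2* and 42.6 and 39.1 for *aipp2-1/paipp2-1*. It had 3.19 and 7.04 FPKM for *aipp2-1*, 8.41 and 0.81 for *paipp2-1*, 1.46 and 0.48 for *clf-81* and 0.08 and 0.45 for *lhp1-3*, against 1.79 and 1.77 for Col-0. The single mutants spread from below to above Col-0, and the Polycomb libraries were all lower than Col-0. *CCOAMT* (AT1G67980), annotated as a caffeoyl-CoA methyltransferase, had 6.38 and 4.56 FPKM for *aipp3-1*, 10.4 and 12.8 for *cpl2-2* and 6.80 and 9.98 for *aipp2-1/paipp2-1*, against 0.63 and 0.18 for Col-0. *GLCAK2* (AT5G14470), a sugar kinase, had 5.60 and 6.08 FPKM for *aipp3-1*, 6.63 and 8.07 for *cpl2-2* and 8.95 and 6.97 for *aipp2-1/paipp2-1*, against 0.68 and 0.45 for Col-0. *AT3G59480*, annotated as a pfkB-type carbohydrate kinase, had 7.05 and 8.79 FPKM for *aipp3-1*, 10.6 and 16.4 for *cpl2-2* and 6.82 and 14.2 for *aipp2-1/paipp2-1*, against 1.83 and 1.91 for Col-0.

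Away from immunity, *ASY1* (AT1G67370, chromosome 1, 25239117 to 25243837, minus strand), a protein of the meiotic chromosome axis, had 3.97 and 4.39 FPKM for *aipp3-1*, 12.8 and 15.3 for *cpl2-2* and 22.9 and 12.6 for *aipp2-1/paipp2-1*. The remaining values were 0.85 and 0.99 FPKM for *aipp2-1*, 1.46 and 1.53 for *paipp2-1*, 0.44 and 0.56 for *clf-81* and 1.17 and 0.74 for *lhp1-3*, against 0.52 and 0.76 for Col-0. Its level was lower in *aipp3-1* than in the other 2 mutants, with no overlap. *AT5G42530*, whose function is not annotated, was the member with the highest Col-0 level. It had 623 and 734 FPKM for *aipp3-1*, 715 and 723 for *cpl2-2* and 3273 and 1215 for *aipp2-1/paipp2-1*, against 216 and 287 for Col-0. Its *lhp1-3* libraries had 83.4 and 80.3 FPKM. *ECS1* (AT1G31580) had 373 and 439 FPKM for *aipp3-1*, 344 and 322 for *cpl2-2* and 1344 and 806 for *aipp2-1/paipp2-1*, against 136 and 190.3 for Col-0. *AT2G25510* had 250.4 and 315 FPKM for *aipp3-1*, 300.5 and 326 for *cpl2-2* and 2816 and 744 for *aipp2-1/paipp2-1*, against 73.5 and 135 for Col-0, and its double mutant libraries were far apart. *AT3G22235* had the lowest mean d over *clf-81* and *lhp1-3*, followed by *PR2* and *CRK6*. It had 145 and 141 FPKM for *aipp3-1*, 192 and 150.4 for *cpl2-2* and 224 and 244 for *aipp2-1/paipp2-1*, against 56.5 and 44.8 for Col-0. Its levels were 37.9 and 29.7 FPKM in *clf-81* and 5.41 and 5.37 FPKM in *lhp1-3*.

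**Figure D4:**
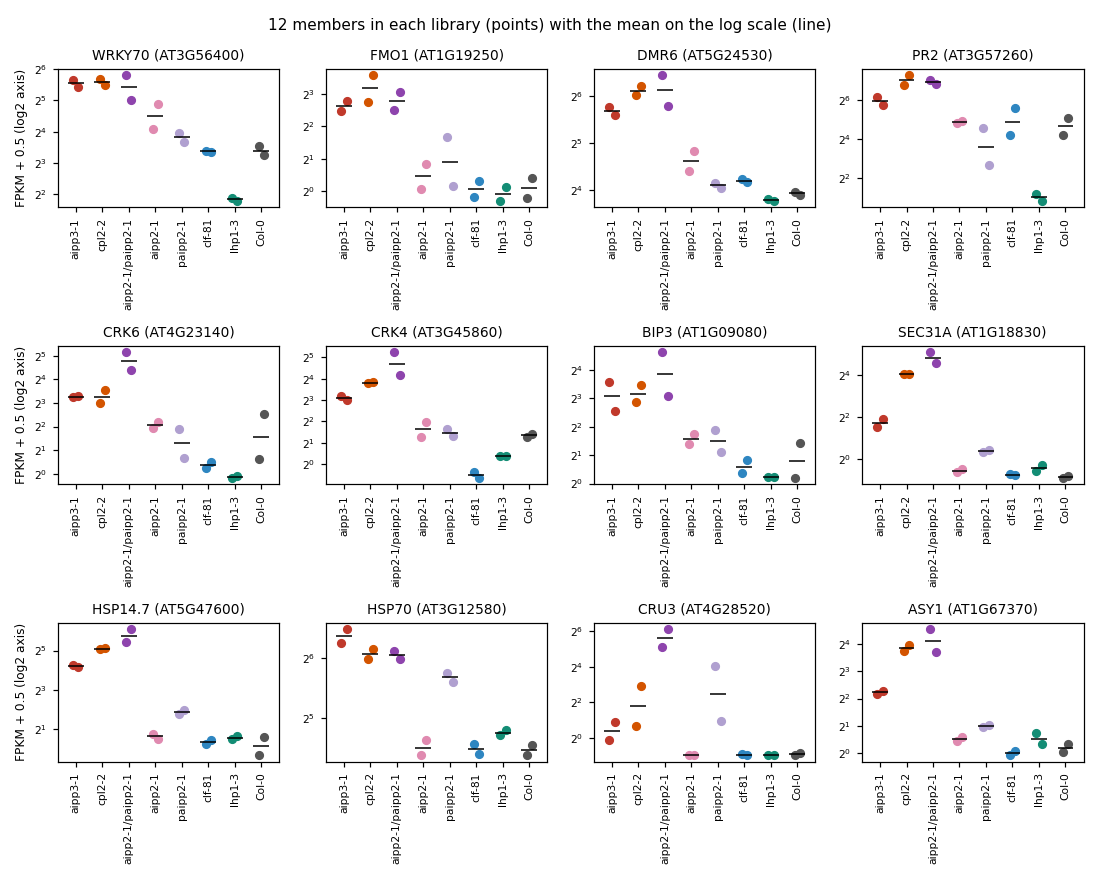
FPKM + 0.5 (log2 axis) of 12 members in each library (points, 2 per genotype), with the mean on the log scale as a line. *PR2*, *WRKY70* and *CRK6* fall below Col-0 in *lhp1-3*, *HSP70* is at 53.4 and 48.3 FPKM in *paipp2-1*, against 20.6 and 23.2 in Col-0, and *CRU3* is high in *aipp2-1/paipp2-1* and in 1 *paipp2-1* library.

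*CRU3*, a 12S seed storage protein, was the 1 member from a list of 11 seed genes (8 tested). *CRU3* (AT4G28520, chromosome 4, 14087556 to 14089796, plus strand) had 0.40 and 1.35 FPKM for *aipp3-1*, 1.08 and 6.93 for *cpl2-2* and 34.9 and 69.1 for *aipp2-1/paipp2-1*. Its other values were 0.00 and 0.00 FPKM for *aipp2-1*, 15.8 and 1.42 for *paipp2-1*, 0.02 and 0.00 for *clf-81* and 0.00 and 0.00 for *lhp1-3*, against 0.00 and 0.05 for Col-0. Replicates of *paipp2-1* differed more than 10-fold. The 7 other tested genes of the list were called higher in the double mutant (limma, as above). The summed level of the list was 109 to 235 FPKM in the double mutant, 11.6 to 36.9 in *cpl2-2*, 4.96 to 12.2 in *aipp3-1* and 11.4 to 55.7 in *paipp2-1*, against 0.74 to 1.22 in Col-0. In *aipp2-1*, *clf-81* and *lhp1-3* it was 0.26 to 2.36 FPKM, and in each of these genotypes and in Col-0 some 4 of the 11 genes, not always the same ones, were at 0 in both libraries. *AT3G17520*, annotated as a late embryogenesis abundant protein, and *BGLU19* (AT3G21370), a β-glucosidase, moved with these genes. *BGLU19* had 0.63 and 1.35 FPKM for *aipp3-1*, 0.73 and 2.03 for *cpl2-2* and 5.09 and 11.2 for *aipp2-1/paipp2-1*. Its levels were 0.02 and 0.06 FPKM for *aipp2-1*, 2.94 and 1.01 for *paipp2-1*, 0.22 and 0.17 for *clf-81* and 0.37 and 0.09 for *lhp1-3*, against 0.02 and 0.00 for Col-0. *AT3G17520* had 1.16 and 1.26 FPKM for *aipp3-1*, 0.74 and 0.88 for *cpl2-2* and 4.62 and 5.74 for *aipp2-1/paipp2-1*. It had 0.00 and 0.03 FPKM for *aipp2-1*, 1.43 and 0.67 for *paipp2-1*, 0.26 and 0.00 for *clf-81* and 0.26 and 0.10 for *lhp1-3*, against 0.00 and 0.03 for Col-0. For 7 members, these 3 among them, both Col-0 libraries lay under the level of 3 fragments (0.0729 FPKM for *CRU3*), so their d depends on the pseudocount and is no bound on a fold. The part that seed tissue or seed-stage RNA plays in these values was not tested.

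Summed levels of marker lists for other tissues and states differed from Col-0 in some genotypes and not in others. Summed over 7 leaf senescence genes, the level was 368 to 395 FPKM in *aipp3-1*, 406 to 479 in *cpl2-2*, 177 to 497 in the double mutant, 421 to 523 in *clf-81* and 173 to 184 in *lhp1-3*, against 252 to 292 in Col-0. The sums do not stand for all genes of the list, 1 of which, *WRKY53*, was a member. Of the 6 tested, 3 were called higher in *aipp3-1*, 2 in *cpl2-2*, 2 in the double mutant and 1 in *clf-81* (*SAG13*, 4.75), and 2 were called lower in *lhp1-3* (*ORE1*, -1.15, and *NAP*, -1.58). Over 4 shoot genes, of which only 2 passed the filter, the sum was 217 to 220 FPKM in *lhp1-3*. It was 221 to 429 FPKM in the double mutant, against 397 to 715 in Col-0. The shoot sum was 580 to 642 FPKM in *aipp3-1*, 355 to 426 in *cpl2-2* and 380 to 416 in *clf-81*. Over 6 root genes it was 254 to 257 FPKM in *lhp1-3*, 129 to 160 in *clf-81*, 82.2 to 91.5 in *aipp3-1*, 71.1 to 92.9 in *cpl2-2* and 91.1 to 94.5 in the double mutant, against 90.2 to 96.9 in Col-0. The iron transporter gene *IRT1* had 2.82 in *lhp1-3*, 1.71 in *clf-81* and -2.80 in *aipp3-1* (limma adjusted p = 0.00014, 0.002 and 0.00055). In the double mutant *NRT2.1* was called higher (1.93, limma adjusted p = 0.00069) and *EXP7* lower (-1.03, limma adjusted p = 0.03). The part of these shifts in the members' values was not tested. None of 19 tested genes of a list of known Polycomb targets was a member. Of those 19, 12 were called higher in *clf-81*, where 5.98% of all genes were, and 10 in *lhp1-3*, where 2.8% were. In the double mutant 3 were called higher, in *cpl2-2* 2 and in *aipp3-1* none. Of 9 tested genes of jasmonate and ethylene response, none was a member either, and 8 were called higher in *clf-81*. The rule likewise barred those 8.

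The rule used *aipp2-1* and *paipp2-1* only in its filter on expression and took no d from them. These libraries give the members' levels in the lines labelled as single mutants. *AIPP2* transcript was lower by 1.64 in the double mutant but had a d of only -0.40 in the libraries labelled *aipp2-1*, which carry the same allele by name, so how far these libraries lack AIPP2 is not settled by the data. Both were compared with the same Col-0 libraries that chose the members, so the 2 comparisons are not independent of the rule or of each other. In *aipp2-1* the median d of the members was 0.30 (-0.46 to 1.21), against 0.43 over the comparison genes and 0.05 over all genes tested, and in *paipp2-1* it was 0.36 (-1.05 to 3.42), against 0.52 and 0.01. In *aipp2-1* 110 of the 125 (88.0%) had a d above 0, against 87.1% of the comparison genes and 63.5% of all genes, and in *paipp2-1* 101 (80.8%), against 84.4% and 53.0%. Genes raised in the *bpc* mutants thus had similar shares whether or not they were also raised in *clf-81*. Both medians moved with the Col-0 libraries: they were 0.13 in each single mutant without Col-0 replicate 1, and 0.47 in *aipp2-1* and 0.52 in *paipp2-1* without Col-0 replicate 2. For 122 of the 125, d in the double mutant was above the sum of the 2 single-mutant values, by a median of 1.67, against 1.26 over the comparison genes and 0.01 over all genes tested. That difference contains the double mutant's d, which the rule set high.

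In *aipp2-1*, 48 members had both libraries above both Col-0 libraries, where 26.5% of all genes did. No member was called in *aipp2-1* by limma (Benjamini-Hochberg, adjusted over 19895 genes), where 0.00503% of all genes were called higher. At an unadjusted p under 0.05 there were 22 members, all higher, and 2.40% of all genes were higher at that level. The smallest p-values belonged to *AT3G48390* (d of 0.78, standard error 0.154, limma adjusted p = 0.47) and *WRKY70* (1.09, standard error 0.269, limma adjusted p = 0.72).

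In *paipp2-1*, 57 members had both libraries above Col-0, where 25.1% of all genes did. In the limma fit 5 members were called higher, where 0.131% of all genes were, and none was called lower, where 0.0352% were. At an unadjusted p under 0.05 there were 34 members higher and 0 lower, where 6.37% of all genes were higher and 4.26% lower. They were *HSP70*, *AT3G48390*, *HSP14.7*, *SEC31A* and *AT3G17520*. *HSP70* had 53.4 and 48.3 FPKM in *paipp2-1*, against 20.6 and 23.2 in Col-0, a difference of 1.199 (log2, standard error 0.123, limma adjusted p = 0.0025). *AT3G48390*, annotated as similar to programmed cell death 4, had 2.43 and 2.71 FPKM in *paipp2-1*, against 0.69 and 0.74 in Col-0 (1.34, standard error 0.154, limma adjusted p = 0.0064). Pairs did not overlap for either gene. *HSP14.7* differed by 1.75 (standard error 0.269, limma adjusted p = 0.023), with 2.86 and 3.34 FPKM in *paipp2-1*, against 0.28 and 0.97 in Col-0. *SEC31A* had 0.74 and 0.83 FPKM in *paipp2-1*, against 0.03 and 0.06 in Col-0, which gave 1.24 (standard error 0.197, limma adjusted p = 0.027). *AT3G17520* gave 1.55 (standard error 0.274, limma adjusted p = 0.039). *CRU3* had the largest difference, 3.42, but with a standard error of 0.855 it was not past the threshold (limma adjusted p = 0.12).

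Most of these calls were lost in smaller fits, although each difference stayed positive. With only the *paipp2-1* and Col-0 libraries in the fit, none of the 5 was called (limma adjusted p from 0.086 to 0.14). *HSP70* stayed called with any 1 library left out. *AT3G48390* was lost without Col-0 replicate 1 (limma adjusted p = 0.079) or *paipp2-1* replicate 2 (0.077), and *HSP14.7* without Col-0 replicate 1 (0.17) or either *paipp2-1* replicate (0.18 each). *SEC31A* was lost without any 1 of the 4 libraries (0.19 and 0.082 without Col-0 replicates 1 and 2, and 0.19 and 0.18 without *paipp2-1* replicates 1 and 2), as was *AT3G17520* (0.25, 0.11, 0.29 and 0.077 in the same order). The differences themselves ran from 1.19 to 1.29 for *SEC31A*, 1.27 to 1.40 for *AT3G48390*, 1.18 to 1.91 for *AT3G17520* and 1.29 to 2.20 for *HSP14.7*. No exact permutation test of 2 libraries against 2 can give a two-sided p below 0.333.

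**Figure D5:**
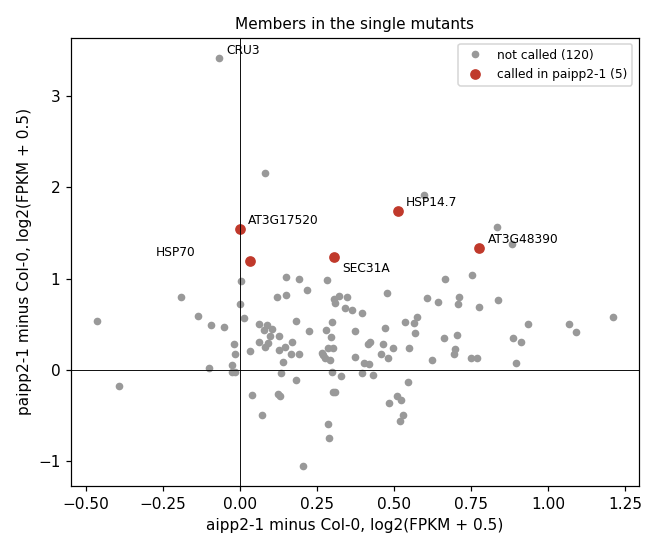
Difference from Col-0 in *aipp2-1* (horizontal) and *paipp2-1* (vertical), log2(FPKM + 0.5), for the 125 members (points). The 5 called in *paipp2-1* are red and named. *HSP70* and *AT3G17520* are near 0 in *aipp2-1* (0.03 and 0.00), and *CRU3* reaches 3.42 in *paipp2-1* without a call.

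The 2 single mutants were also compared with each other, and this difference uses no library from which the rule took d. Its p-values rest on a spread estimated from all 16 libraries, which include those of the rule. Of the 125, 65 had a higher d in *paipp2-1* than in *aipp2-1*, and the median difference was 0.01 (-0.18 to 0.19 with 1 library left out). Both *paipp2-1* libraries lay above both *aipp2-1* libraries for 41 members, where 21.8% of all genes did, and below for 22, where 30.8% did. One member was called, *HSP70*, where 0.0503% of all genes were called higher, and none was called lower, where 0.0302% were. *HSP70* had 53.4 and 48.3 FPKM in *paipp2-1*, against 20.4 and 24.5 in *aipp2-1*, a difference of 1.17 (log2, standard error 0.123, limma adjusted p = 0.0039, and 0.057 without *aipp2-1* replicate 1). At an unadjusted p under 0.05 there were 20 members higher and 10 lower in *paipp2-1*, where 4.34% and 5.32% of all genes were. None of the 8 salicylic acid members was called, with differences from -1.25 (*PR2*, limma adjusted p = 0.50) to 0.46 (*FMO1*, limma adjusted p = 0.85). None of the 10 *CRK* members was called either, and their median d was -0.02 in *paipp2-1* and 0.31 in *aipp2-1*. Whether these groups differed from *HSP70* was not tested. With only the *aipp2-1* and *paipp2-1* libraries in the fit, *HSP70* had a limma adjusted p of 0.042.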

How the data were processed

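Messenger RNA of 16 seedling libraries was sequenced as paired ends, and reads were trimmed (SeqPrep, Sickle). The authors provided a table of FPKM per gene, rounded to 2 decimals, with 33048 genes. The submitters' processing notes name TopHat, Bowtie, RSEM and edgeR without roles, and the genome build is not given in the sources used here. Depth was computed from the steps between low FPKM values and TAIR10.1 transcript lengths (96.8% to 98.7% of low values lay within 0.2 of a whole fragment). The floor of 3 fragments covers counting error only.

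Members followed the stated rule. The members and lists were chosen with earlier results of these data known. For the 19895 genes past the filter, log2(FPKM + 0.5) of all 16 libraries entered a single limma 3.58.1 model in R 4.3.3, with a mean-variance trend in eBayes and 8 residual degrees of freedom. This scale understates changes of low genes. Calls needed a difference of 2-fold or more with a Benjamini-Hochberg adjusted p under 0.05. In a test on simulated data of *paipp2-1* against Col-0 for 19895 genes, 194 of 200 genes changed 4-fold were called with the right sign and 7 unchanged genes were called. Changes smaller than 4-fold and shifts shared by many genes were not simulated. Python 3.11.15 was used for the rest.

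Genes were named by rule: the 10 members with the largest smallest d, members of a list, members called in a single mutant, the 3 lowest in the Polycomb mutants, the 3 highest and the lowest in Col-0, neighbouring members, those next to each threshold and those the study names. Others given by value were named after their values were seen. Term classes come from the annotation columns of the deposited table. Alternatives were other pseudocounts, filters and scalings, a replicate block, fewer libraries in the fit, and each library left out.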

Additional observations from a re-analysis of the deposited data

Results flagged for a closer look

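*HSP70* (AT3G12580) was the 1 member whose 2 single-mutant effects differed by a test of the difference itself. It was higher in *paipp2-1* than in *aipp2-1* by 1.17 on the log2 scale (limma, Benjamini-Hochberg adjusted p = 0.0039), in each of the 4 pairs of libraries.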

How the results depend on the processing

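Of 199 alternative values, 164 were taken as unchanged. For a single gene this meant that it was still called, and for a median that it stayed within the spread between replicates. For a count it meant lying within a fixed ratio of the main count. That range was wide and held both 167 and 93 genes chosen by the rule, against 125. No called value changed direction. The median of *paipp2-1* over *aipp2-1*, 0.01, was negative in 3 of its alternatives, at -0.18 to -0.02. The number of members called in *paipp2-1* was 5, and it was 0 with only the compared libraries, 9 with a pseudocount of 0.1, 3 with a pseudocount of 1, and 1 to 4 with a library left out. For *paipp2-1* over *aipp2-1* the 1 call became 0 to 1. With a library left out, the median d of the members ran from 0.129 to 0.470 in *aipp2-1* and from 0.131 to 0.518 in *paipp2-1*, and the lowest values were those without Col-0 replicate 1. The rule chose 167 genes with a pseudocount of 0.1 (101 of the 125), 96 with 1 (85), 93 after quantile normalization (89), 113 after median-ratio scaling, 126 without a filter, 119 with a filter of 4 libraries, and 112 to 134 with a library left out. Quantile normalization moved the median of all genes by -0.104 in *aipp3-1* and -0.109 in *aipp2-1/paipp2-1*. Deviations of same-numbered libraries had correlations of -0.012 for *aipp2-1*, -0.17 for *paipp2-1* and -0.0758 between them, so the numbers were not taken as pairs. With the replicate number as a block, 5 members were called in *paipp2-1* (*AT3G17520* was lost, at a limma adjusted p of 0.052, and another member was called), and all genes called numbered 0 in *aipp2-1*, against 1 without the block, and 10 for *paipp2-1* over *aipp2-1*, against 16. A crossed block, added after the data were seen, also gave 5 members. The cause of these shifts was not tested.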
